A study of Mus musculus with 42 samples.

Results

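The 34 genes described here encode proteins that act in S phase, when DNA is copied, and in M phase, when chromosomes are separated. They were taken by symbol from the deposited count tables. All 34 were present among the 53546 rows of the table for cortex and hippocampus and among the 24421 rows of the whole-brain files, so no symbol had to be skipped. They were read in 5 role classes: 8 genes of replication licensing and the replicative helicase, 6 of nucleotide supply and the replication fork, 7 cyclins and cyclin-dependent kinases, 7 mitotic kinases and checkpoint or exit factors, and 6 spindle, chromosome and proliferation-marker genes.

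The study asked how the gut microbiota and acetate bear on microglia, the resident macrophages of the brain. From C57BL/6 mice, CD11b+ CD45lo microglia were collected by flow sorting and their RNA was sequenced in bulk, giving 42 libraries in 11 groups. Whole brain came from wild-type mice aged 6 to 12 weeks. Of these, 3 were kept specific-pathogen-free (SPF) and 5 germ-free (GF). Cortex came from wild-type mice aged 16 weeks that were SPF, GF or GF given acetate in drinking water (GFA), with n = 4 each. Hippocampus at 16 weeks covered wild type under SPF (n = 4), GF (n = 3) and GFA (n = 4) and 5xFAD mice under SPF (n = 4), GF (n = 3) and GFA (n = 4). The labels give 8 weeks of acetate for wild-type and 5xFAD mice and also mention a 4-week group that is not placed by library. The 5xFAD model is an amyloid model whose transgenes are driven by the neuronal Thy1 promoter, so they are not microglial ones. Libraries are named below by the animal number in the labels, and the labels give 11 wild-type animals a cortex and a hippocampus library each.

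As background, MCM proteins are loaded on replication origins with the help of Cdc6 and Cdt1, and 6 of them (Mcm2 to Mcm7) form the ring that unwinds DNA. E2F factors switch on many S phase genes, while many M phase genes carry a promoter element called CHR that keeps them off in resting cells and active late in the cycle. Adult microglia are long-lived and divide rarely, and their division has been described around amyloid plaques in mouse models.

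The promoters of 4 genes on which the results below turn were read from RefSeq (GRCm38.p6), from 250 bases before to 50 after the annotated start, because S phase and M phase genes differ in the motifs of this window. Capitals mark E2F motifs (TTTCCCGC, TTTCGCGC, TTTGCCGC or TTTGGCGC) and CHR motifs (TTTGAA), searched on both strands.
Mki67: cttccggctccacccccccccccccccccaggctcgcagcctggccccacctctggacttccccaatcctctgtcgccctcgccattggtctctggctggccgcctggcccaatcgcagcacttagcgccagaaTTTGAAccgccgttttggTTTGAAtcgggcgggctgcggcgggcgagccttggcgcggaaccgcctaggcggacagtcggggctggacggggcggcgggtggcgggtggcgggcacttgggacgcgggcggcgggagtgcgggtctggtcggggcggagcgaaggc
Mcm6: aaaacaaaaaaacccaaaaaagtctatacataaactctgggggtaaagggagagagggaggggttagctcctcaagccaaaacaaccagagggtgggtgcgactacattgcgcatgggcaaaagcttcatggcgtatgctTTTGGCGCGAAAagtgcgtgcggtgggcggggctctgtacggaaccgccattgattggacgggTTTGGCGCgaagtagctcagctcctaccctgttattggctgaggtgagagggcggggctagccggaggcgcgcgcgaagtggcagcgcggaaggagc
Cdk1: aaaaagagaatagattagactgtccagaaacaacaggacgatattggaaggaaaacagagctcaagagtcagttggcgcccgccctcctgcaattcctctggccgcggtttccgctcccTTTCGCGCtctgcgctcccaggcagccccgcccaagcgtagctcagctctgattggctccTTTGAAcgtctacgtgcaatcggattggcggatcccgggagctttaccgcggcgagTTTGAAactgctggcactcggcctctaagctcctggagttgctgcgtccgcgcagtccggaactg
Top2a: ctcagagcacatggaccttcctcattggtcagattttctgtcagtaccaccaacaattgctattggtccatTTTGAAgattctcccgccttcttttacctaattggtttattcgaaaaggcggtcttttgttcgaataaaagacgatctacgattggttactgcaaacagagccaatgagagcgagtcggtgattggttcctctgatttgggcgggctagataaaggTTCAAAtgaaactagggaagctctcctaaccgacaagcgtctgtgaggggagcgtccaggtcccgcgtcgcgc
The windows lie at chr7:135716330-135716629, chr1:128359656-128359955, chr10:69352863-69353162 and chr11:99024140-99024439, all on the minus strand. Mki67 and Top2a held 2 CHR motifs each and no E2F motif, Mcm6 held 3 E2F motifs, of which 2 overlap, and no CHR motif, and Cdk1 held 1 E2F motif and 2 CHR motifs. The table matched 29 of the 34 genes, with 32 windows. An E2F motif was present in 9 of the 29 genes (28.1% of their windows, against 2.26% of all 32851 windows). These 9 included 6 of the 7 licensing and helicase genes matched (Cdc6, Cdt1, Mcm3, Mcm5, Mcm6 and Mcm7) and 0 of the mitotic kinase and spindle classes. A CHR motif was present in 11 genes (37.5% of windows, against 17.9% of all), 8 of them in the mitotic kinase and spindle classes. The CCAAT box, searched as CCAAT on both strands, was found in 78.1% of the genes' windows and 37.4% of all. These are letter matches in a fixed window and show no binding.

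Total counts ran from 19329304 to 25366393 in whole brain, from 15790383 to 23860490 in cortex and from 5743891 to 22532410 in hippocampus. The summed level of 9 microglia markers was 37310 to 72650 CPM (read counts scaled to a common library total) across libraries. Several hippocampus libraries stood apart. The wild-type GFA library GFA_WT_518 had reads for the fewest genes, 16607, and for 19 of the 34 cell-cycle genes it had 0 counts at a total of 21746850 counts. The wild-type GF library GF_WT_530 had 17750 genes. Wild-type SPF library 4 (5862938 counts) and 5xFAD SPF library SPF_FAD_2142 (5743891 counts) were shallow. Wild-type SPF library 3 held 70.8 CPM of erythroid markers, and 5xFAD SPF library SPF_FAD_2153 held 1063 CPM of neutrophil markers. Wild-type GF library GF_WT_532 came next in neutrophil markers at 889.5 CPM, with 22.71 CPM of monocyte markers, and the remaining hippocampus libraries held at most 704.1 CPM. GF_WT_532 was not among the libraries left out below for blood-cell RNA. In bulk RNA a lower number of cycling cells and less of these RNAs per cell cannot be told apart.

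Together the 34 genes made up little of each library. Their summed level was 261.9 to 294.3 CPM in whole brain, 258.3 to 318.5 CPM in cortex and 213.8 to 465.6 CPM in hippocampus. Replication genes carried most of it. Mcm3, Pcna, Mcm7, Rrm1, Cdk2 and Tyms held 58.2% of the genes' reads in hippocampus, and 6 genes held 67.6% in cortex and 75.5% in whole brain. Per kilobase of merged exon, Pcna, the sliding clamp of DNA polymerase, was highest in hippocampus at a mean of 15.3 CPM per kb. Mcm3 followed at 11.8 CPM per kb. At the other end, the licensing factor Cdc6 stood at 0.0874 CPM per kb and Ccne1, which encodes a cyclin of the G1 to S transition, at 0.155 CPM per kb. Mki67, the gene of the Ki-67 antigen used to mark cycling cells, stood at 0.699 CPM per kb.

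**Figure D1:**
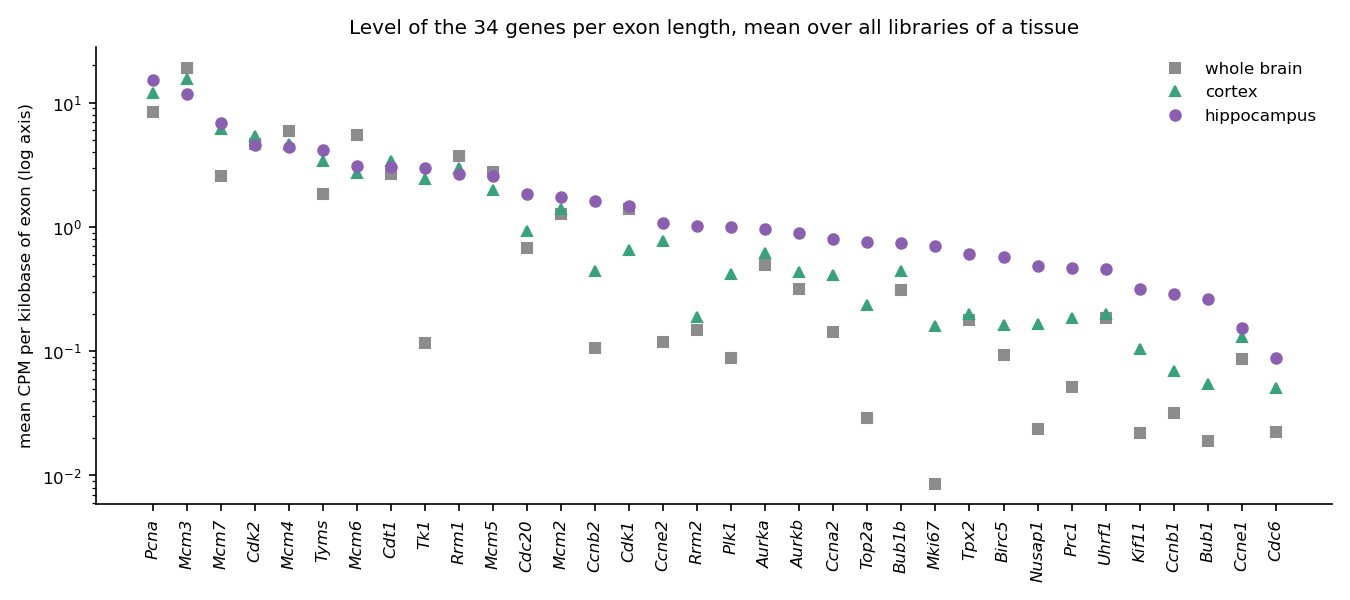
Mean CPM per kilobase of merged exon (log axis) of each of the 34 genes over the 8 whole-brain, 12 cortex and 22 hippocampus libraries, ordered by the hippocampus level. Pcna and Mcm3 are highest, and the lowest genes in hippocampus are Cdc6 and Ccne1. The whole-brain files were counted on a different gene table, so levels across the 2 tables are not matched.

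The relative spread between libraries was wide for several of the lowest genes. In hippocampus the coefficient of variation was 19.2% for Cdk2, 21.5% for Tyms and 22.2% for Mcm3, but 142% for Ccne1, 126% for Cdc6 and 114% for the spindle motor gene Kif11. Reads were found in every library for 13 of the 34 genes in hippocampus, 20 in cortex and 17 in whole brain. The expression filter kept all 34 in hippocampus, 30 in cortex (not Ccnb1, Ccne1, Cdc6 and Bub1) and 23 in whole brain. The 11 genes not tested in whole brain were Mki67, Top2a, Ccnb1, Ccnb2, Ccne1, Cdc6, Birc5, Bub1, Plk1, Kif11 and Nusap1.

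In hippocampus the spindle-class genes summed to more in every 5xFAD than in every wild-type library under SPF and under GF. Of the 34 genes, 28 had their highest CPM in a 5xFAD library (11 of the 22 libraries). Many shared a library: 9 were highest in the 5xFAD GFA library GFA_FAD_519 and 5 each in SPF_FAD_2142 and SPF_FAD_2153. The genes are therefore not independent results on genotype. These counts were not made over all genes, so no background share stands beside them. The summed level of the spindle, chromosome and proliferation-marker class was 8.62 to 21.4 CPM in wild-type SPF, 2.85 to 8.49 CPM in wild-type GF and 5.70 to 25.5 CPM in wild-type GFA libraries. In 5xFAD mice it was 25.2 to 63.4 CPM under SPF, 25.6 to 34.4 CPM under GF and 14.9 to 65.2 CPM under GFA. The groups did not overlap under SPF and GF, and they overlapped under GFA through library GFA_FAD_522. For the licensing and helicase class the summed level was 105.3 to 149.9 CPM in wild-type SPF and 109.9 to 180.7 CPM in 5xFAD SPF libraries, and 122.8 to 136.4 against 115.8 to 156.9 CPM under GF. Both pairs overlapped. Under GFA it was 83.7 to 129.8 CPM in wild type and 141.1 to 173.6 CPM in 5xFAD, without overlap.

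**Figure D2:**
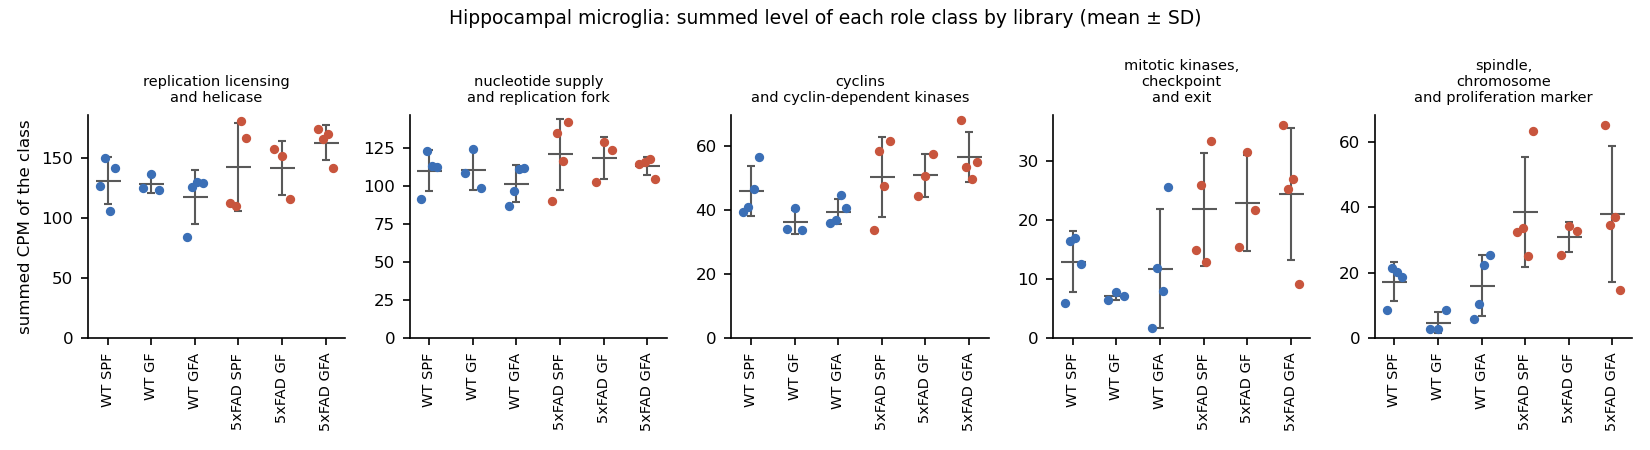
Summed CPM of each of the 5 role classes in the 22 hippocampus libraries, wild type in blue and 5xFAD in red, with mean and SD per group. The spindle class separates the genotypes under SPF and GF (2.85 to 8.49 CPM in wild-type GF against 25.6 to 34.4 CPM in 5xFAD GF), while the licensing and helicase class overlaps in both and separates under GFA.

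Mki67 was the member that passed the test between genotypes. In germ-free wild-type hippocampus its counts were 3 in library GF_WT_529, 0 in GF_WT_530 and 5 in GF_WT_532, which is 0.162, 0 and 0.270 CPM. In germ-free 5xFAD hippocampus they were 77 in library GF_FAD_526, 208 in GF_FAD_527 and 171 in GF_FAD_531, which is 4.70, 11.4 and 7.59 CPM. The groups did not overlap, and all 3 wild-type libraries were near 0. The difference was log2 5.70 (SE 1.32, edgeR quasi-likelihood test, Benjamini-Hochberg adjusted p = 0.0393). It was 1 of 34 cell-cycle genes called, against 0.756% of the 17063 genes tested. Leaving out any 1 of the 6 libraries took its adjusted p to 0.0753 to 0.202 by edgeR, with log2 differences of 5.18 to 6.45 (without GF_WT_532, Tpx2 was called instead), and without the expression filter it was 0.166. Without the libraries with the fewest genes, GF_WT_530 and GFA_WT_518, it stayed called at log2 5.18 (edgeR adjusted p = 0.0448), and DESeq2 gave an adjusted p of 0.00152.

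Under SPF, Mki67 was 3.04, 5.63, 7.20 and 0.171 CPM in wild-type libraries 1 to 4 and 6.51, 6.96, 9.78 and 24 CPM in 5xFAD libraries SPF_FAD_2140, SPF_FAD_2142, SPF_FAD_2152 and SPF_FAD_2153. These overlapped, at log2 1.51 (SE 0.87, edgeR adjusted p = 0.615). The difference was 0.91 without SPF_FAD_2153, 1.32 without both libraries with blood-cell RNA and 1.32 without both shallow ones. Under GFA it was 0, 1.98, 10.8 and 5.71 CPM in wild-type libraries GFA_WT_518, GFA_WT_523, GFA_WT_524 and GFA_WT_525 and 24.2, 12.4, 7.37 and 4.85 CPM in 5xFAD libraries GFA_FAD_519, GFA_FAD_520, GFA_FAD_521 and GFA_FAD_522. These overlapped as well, at log2 1.44 (SE 0.86, edgeR adjusted p = 0.495). The difference was 1.01 without GFA_WT_518, 0.86 without GFA_FAD_519 and 2.28 without GFA_WT_524. The 5xFAD difference in Mki67 was larger by log2 4.19 (SE 1.54) under GF than under SPF, which did not pass over all genes (edgeR adjusted p = 0.818).

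**Figure D3:**
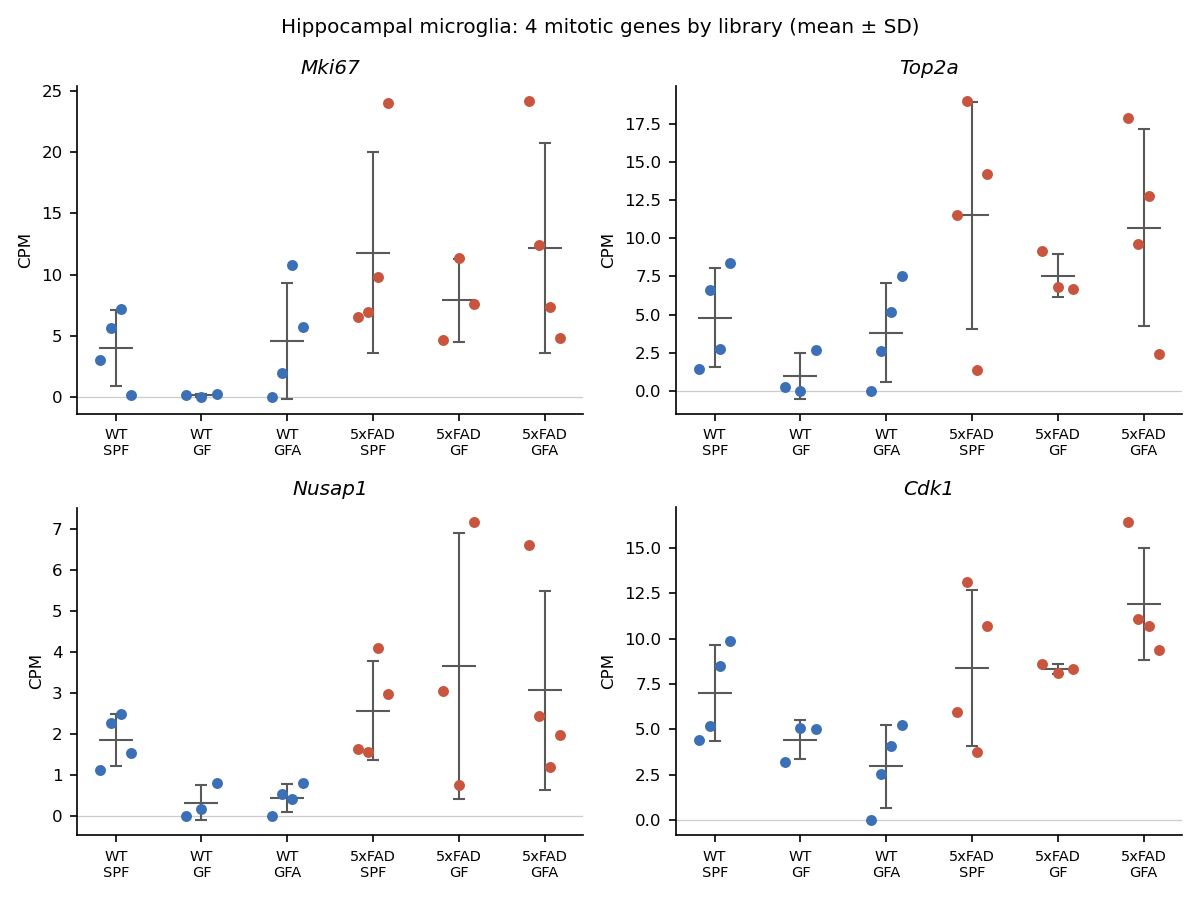
CPM of Mki67, Top2a, Nusap1 and Cdk1 in each hippocampus library, wild type in blue and 5xFAD in red, with mean and SD per group. Mki67 is at 0 to 0.270 CPM in the 3 wild-type GF libraries and at 4.70 to 11.4 CPM in the 3 5xFAD GF libraries, and Cdk1 does not overlap between genotypes under GF or GFA.

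No member passed under the other conditions. Under SPF, 0 of 34 were called, against 0.568% of all genes, and under GFA 0 of 34, against 2.51%. At unadjusted p under 0.05 edgeR gave 1 of 34 genes higher under SPF, 9 under GF and 5 under GFA, and 0 lower in each. Over all 17063 genes tested, both directions together, 1742, 1810 and 2443 had such a p. The counts under SPF and GFA are below or close to that share. DESeq2 called 3 under GF and 3 under GFA. For DESeq2 and for edgeR with libraries left out, here and below, the share of all genes called is not given. The 3 under GFA by DESeq2 were Nusap1, Plk1 and Cdk1, and edgeR called Cdk1 without library GFA_WT_518 and Plk1 without wild-type GFA library GFA_WT_525. The median difference over the 34 genes was log2 0.49 under SPF, 0.94 under GF and 0.89 under GFA, where the medians over all genes tested were 0.01, 0.00 and 0.00. Differences were positive for 29, 28 and 33 of the 34 genes. In levels, 11 of 34 genes had every 5xFAD library above every wild-type library under GF, against 8.31% of all genes tested. These were Bub1, Tpx2, Aurka, Ccna2, Cdc20, Prc1, Mki67, Cdk1, Aurkb, Top2a and Mcm4. Under GFA there were 4 such genes (Mcm6, Nusap1, Ccna2 and Cdk1), against 5.2%, and under SPF 0, against 2.67%.

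By role class, genotype differences had the following medians. For licensing and helicase genes the median was log2 0.20 under SPF, 0.10 under GF and 0.49 under GFA. Nucleotide supply and fork genes had medians of 0.16, 0.42 and 0.27, and cyclins and kinases of the cycle 0.57, 0.68 and 0.54. Mitotic kinase and checkpoint genes had medians of 0.77, 1.85 and 0.96. Spindle, chromosome and marker genes had the highest medians of the 5 classes in each condition, at 1.15, 3.20 and 1.47. These classes were described by their medians only and were not tested against each other.

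**Figure D4:**
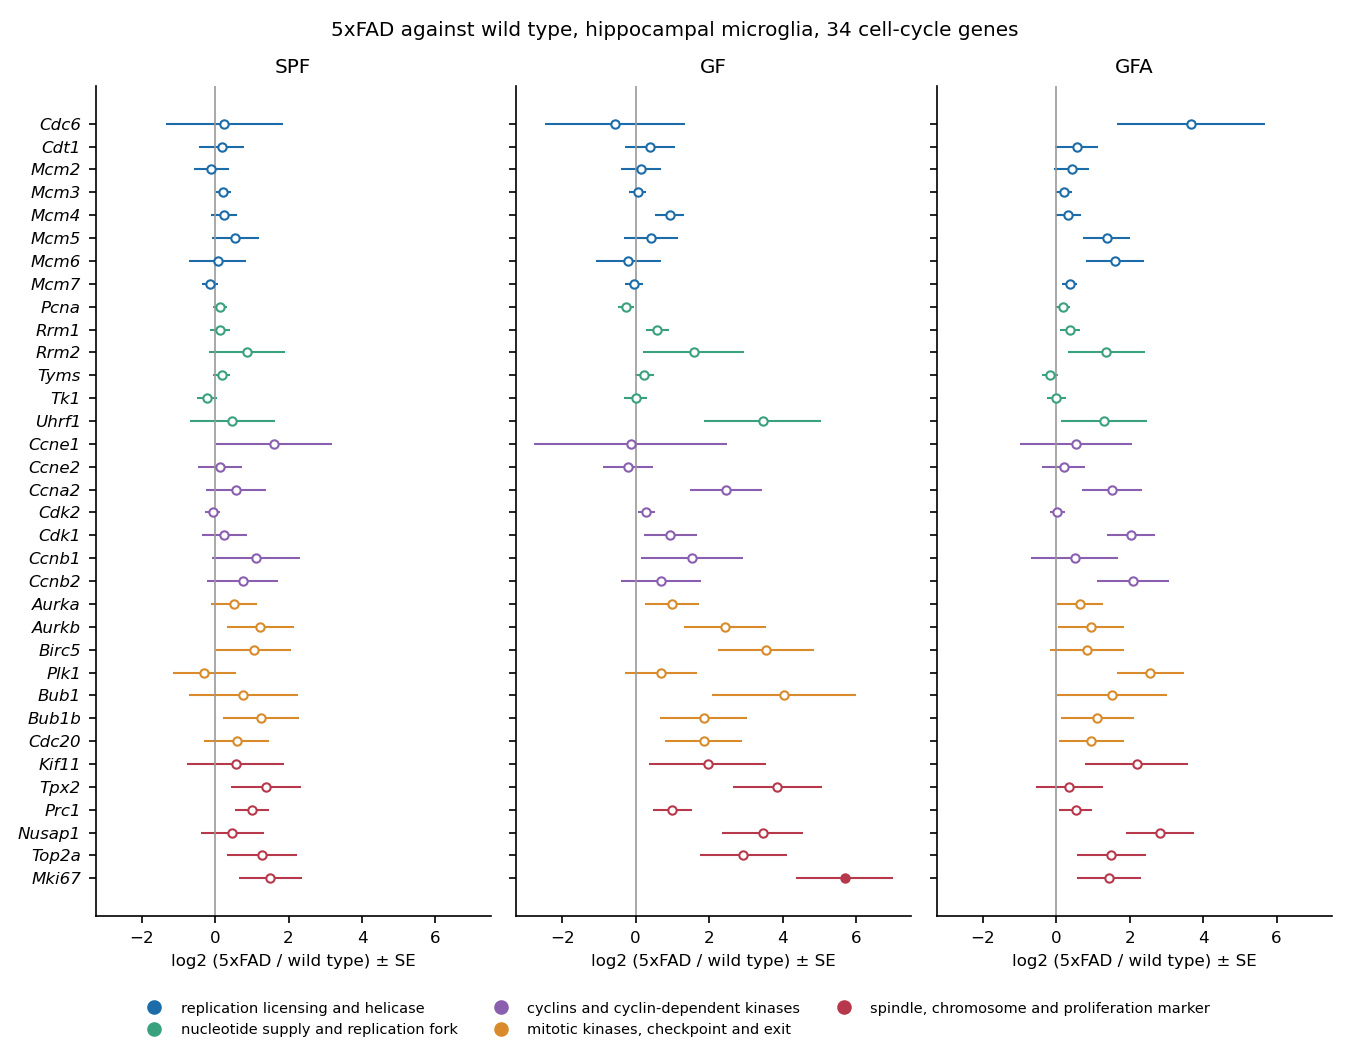
Fitted log2 difference between 5xFAD and wild-type hippocampal microglia, with SE, for the 34 genes by role class under SPF, GF and GFA. The filled symbol is the gene called by edgeR, Mki67 under GF at log2 5.70, and the medians of the spindle class (1.15, 3.20 and 1.47) lie above those of the helicase class (0.20, 0.10 and 0.49).

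Top2a encodes the topoisomerase that untangles sister chromatids. Its levels were 1.47, 6.62, 2.76 and 8.36 CPM in wild-type SPF and 11.5, 19, 1.40 and 14.2 CPM in 5xFAD SPF libraries. Under GF they were 0.270, 0 and 2.70 CPM against 9.16, 6.81 and 6.66 CPM. The GF groups did not overlap, and the SPF groups did, through 5xFAD library SPF_FAD_2152. Top2a differed by log2 1.29 (SE 0.95, edgeR adjusted p = 0.753) under SPF, 2.94 (SE 1.18, adjusted p = 0.356) under GF and 1.51 (SE 0.95, adjusted p = 0.526) under GFA. Under GF it was 2.37 without GF_WT_530 and 5.71 without GF_WT_532, at edgeR adjusted p of 0.121 to 0.675 over the 6 libraries left out in turn.

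Cdk1, the kinase that drives entry into mitosis, was 3.18, 5.10 and 5.03 CPM in wild-type GF and 8.61, 8.08 and 8.34 CPM in 5xFAD GF libraries. Under GFA it was 0, 2.52, 4.07 and 5.25 CPM in wild type and 16.4, 11.1, 10.7 and 9.38 CPM in 5xFAD libraries. Neither pair of groups overlapped. The edgeR difference in Cdk1 was log2 0.26 (SE 0.62, adjusted p = 0.967) under SPF, 0.94 (SE 0.72, adjusted p = 0.735) under GF and 2.04 (SE 0.64, adjusted p = 0.104) under GFA. Cdk2, its relative at the G1 to S transition, differed by at most log2 0.29 in the 3 conditions.

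Among spindle genes, Nusap1, which encodes a microtubule-binding spindle protein, was 0, 0.182 and 0.811 CPM in wild-type GF and 3.05, 0.769 and 7.15 CPM in 5xFAD GF libraries. Under GFA it was 0, 0.549, 0.412 and 0.797 CPM against 6.61, 2.45, 1.19 and 1.98 CPM. The GFA groups did not overlap, and the GF groups met at 1 library each. Tpx2, an activator of Aurora A on the spindle, was 0, 0 and 0.919 CPM in wild-type GF and 1.77, 5.00 and 6.83 CPM in 5xFAD GF libraries. Prc1, a cross-linker of midzone microtubules, had the smallest p under SPF, with 2.18, 2.69, 3.30 and 2.56 CPM against 6.51, 1.74, 6.91 and 6.31 CPM (log2 1.01, SE 0.46, edgeR adjusted p = 0.452). The shallow 5xFAD library SPF_FAD_2142 was the lowest of these 8.

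Bub1, a kinase of the spindle checkpoint, was 0, 0 and 0.324 CPM in wild-type GF and 1.16, 2.86 and 1.64 CPM in 5xFAD GF libraries. Aurkb, the kinase of the chromosomal passenger complex, was 0.162, 0.121 and 1.35 CPM against 2.32, 3.35 and 3.20 CPM, and its partner Birc5 was 0, 0 and 0.757 CPM against 0.671, 7.20 and 1.20 CPM. For Bub1 and Aurkb the groups did not overlap, and for Birc5 they did. Plk1, a kinase of mitotic entry and exit, was 3.08, 2.98 and 1.24 CPM against 2.44, 4.78 and 4.30 CPM, and overlapped. None of the 7 genes of this class passed the edgeR test in any of the 3 conditions.

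No replication gene passed between genotypes. Pcna differed by log2 0.14 (SE 0.19, edgeR adjusted p = 0.927) under SPF, -0.27 (SE 0.22, adjusted p = 0.758) under GF and 0.17 (SE 0.19, adjusted p = 0.769) under GFA. The lower value under GF rested on wild-type library GF_WT_530, at 68.2 CPM of Pcna against 31.1 and 41.4 CPM in the others of its group, and without it the difference was 0.10. Tyms, which makes thymidylate, had the smallest p of the genes with a negative difference under GFA (log2 -0.17, SE 0.22, edgeR adjusted p = 0.821), and Tk1, the thymidine salvage kinase, under SPF (log2 -0.23, SE 0.27, adjusted p = 0.897). Mcm4 was 15.9, 12.1 and 9.25 CPM in wild-type GF and 23.7, 26.4 and 19.4 CPM in 5xFAD GF libraries, without overlap (log2 0.93, SE 0.39, edgeR adjusted p = 0.379). Mcm6 differed by log2 0.07 (SE 0.77, edgeR adjusted p = 0.992) under SPF, -0.20 (SE 0.90, adjusted p = 0.975) under GF and 1.60 (SE 0.80, adjusted p = 0.369) under GFA.

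A comparison added after these values were seen took the mean of the 3 genotype differences over all 22 hippocampus libraries. In it 2 of the 34 genes were called, Mki67 at log2 2.88 (SE 0.60, edgeR adjusted p = 0.00332) and Nusap1 at log2 2.25 (SE 0.56, adjusted p = 0.0138), against 6.96% of all genes. That share is close to the background. Differences were positive for 33 of the 34 genes, the exception being Tk1 at log2 -0.08 (SE 0.16), and the median was 1.02 against 0.00 over all genes. The mean difference was log2 1.91 for Top2a (SE 0.60, edgeR adjusted p = 0.0543), 1.08 for Cdk1 (SE 0.38, adjusted p = 0.0981), 0.49 for Mcm6 (SE 0.47, adjusted p = 0.647) and 0.01 for Pcna (SE 0.12, adjusted p = 0.982). DESeq2 called 8 members, and edgeR called 7 without libraries GF_WT_530 and GFA_WT_518, with Mki67 and Nusap1 in both sets. Without wild-type GF library GF_WT_532, 6 were called, and 4 without 5xFAD library SPF_FAD_2152, wild-type GFA library GFA_WT_518 or 5xFAD GFA library GFA_FAD_522. The 6.96% belongs to the main fit, and no share of all genes stands beside these other counts.

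Other genes of the same phases were read from lists outside the 34. Of 69 further G2 and M phase genes tested in hippocampus, 10 were higher and 0 lower in 5xFAD in this mean over conditions, where 6.96% of all genes were called (716 higher and 472 lower), with a median of log2 0.95. Those with the smallest p were Cenpm, a centromere protein (log2 3.77, SE 0.75), Psrc1, a spindle-associated protein (3.66, SE 0.78), Pbk, a mitotic kinase (3.40, SE 0.73), and Hmmr, a spindle-binding protein (2.71, SE 0.68), with edgeR adjusted p of 0.00291, 0.00499, 0.00523 and 0.015. Under GF alone 2 of the 69 were higher, Psrc1 and Pbk, against 0.756% of all genes called, and the median was 1.15. Of 55 further S phase genes, 2 were higher, Mcm10 and Clspn, both replication-fork factors, and the median was 0.10. Of 19 cell-cycle transcription factors, 1 was higher, E2f8, at log2 4.30 (SE 1.04, edgeR adjusted p = 0.0123). These counts of 2 of 55 and 1 of 19 are no larger a share than the 6.96% over all genes.

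Markers of other cells were read beside these differences. The summed level of 6 oligodendrocyte precursor markers was 0.108 to 2.55 CPM in wild-type GF and 5.28 to 6.47 CPM in 5xFAD GF libraries. Nearly all of it came from Cspg4, at 0 to 40 counts against 80 to 119 counts. The defining markers Pdgfra and Olig1 had 0 counts in all 6 of these libraries, and Olig2 at most 1. Cspg4, 1 of 2 precursor markers tested, was called in the mean over conditions (log2 4.07, SE 0.93, edgeR adjusted p = 0.00743). Also higher were Pf4, 1 of 5 border macrophage markers tested, Flt1, 1 of 4 endothelial ones, and Gfap, 1 of 4 astrocyte ones. The endothelial markers Cldn5 and Ly6c1 had 0 counts in every hippocampus library. Called lower were Mobp, 1 of 6 oligodendrocyte markers tested, and 4 of 9 microglia markers, P2ry12, Tmem119, Sall1 and Cx3cr1. Over all genes 6.96% were called in this mean. The summed level of 6 astrocyte markers was 334.3 to 459.1 CPM in wild-type GF and 475.4 to 497.3 CPM in 5xFAD GF libraries, without overlap. Little of this sum came from defining genes in wild type: Gja1 had 0 counts in all 6 of these libraries, and Gfap 0 in every wild-type GF one. Of the 4 astrocyte markers tested, 0 were called between genotypes under GF. Granulocyte precursor markers reached at most 0.399 CPM in sum and neural progenitor markers at most 1.82 CPM in any hippocampus library. Microglia markers summed to 38690 to 39600 CPM in 5xFAD GF and 41830 to 42700 CPM in wild-type GF libraries. Their part in the cell-cycle result was not tested.

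In wild-type hippocampus, no member passed between GF and SPF, and Mki67 was close to the threshold. It was 0, 0.162 and 0.270 CPM under GF and 0.171 to 7.20 CPM under SPF, with SPF library 4 inside the GF range. The difference was log2 -4.83 (SE 1.28, edgeR adjusted p = 0.0756) and did not pass. Rrm2, the regulated subunit of ribonucleotide reductase, was 2.94, 3.88, 3.46 and 2.73 CPM under SPF and 0, 0.607 and 0 CPM under GF, without overlap (log2 -4.10, SE 1.38, edgeR adjusted p = 0.188). Of the 34 genes 0 were called, against 0.727% of all. At unadjusted edgeR p under 0.05 there were 4 lower and 0 higher, against 2151 of all 17063 genes tested. DESeq2 called 2, Mki67 and Rrm2, and edgeR called Rrm2 without libraries GF_WT_530 and GFA_WT_518. The median was log2 -0.64, with 5 of 34 positive, against 0.00 over all genes. Nusap1, Ccna2 and Rrm2 had every GF library below every SPF library, 3 of 34 against 3.53% of all genes.

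Top2a, Cdk1 and Mcm6 did not pass in this comparison. Top2a differed by log2 -2.30 (SE 1.13, edgeR adjusted p = 0.404), Cdk1 by -0.73 (SE 0.68, adjusted p = 0.751) and Mcm6 by -0.88 (SE 0.85, adjusted p = 0.76). Without GF_WT_532 the Top2a difference was -5.07, with edgeR adjusted p of 0.134 to 0.681 over the libraries left out in turn. Pcna had the smallest p among genes with a positive difference, at log2 0.40 (SE 0.21, edgeR adjusted p = 0.429), and 0.032 without GF_WT_530. In the further G2 and M phase list, Pbk fell by 7.93 on the log2 scale (SE 1.74, edgeR adjusted p = 0.0337), the median was -0.76 and 13 of 69 differences were positive.

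With acetate, wild-type hippocampus spread widely. Mki67 covered 0 to 10.8 CPM in the 4 GFA libraries, and its difference from GF was log2 4.96 (SE 1.28, edgeR adjusted p = 0.0776). This comparison uses the same GF libraries as the one above. Of the 34 genes 0 were called, against 0.492% of all. At unadjusted edgeR p under 0.05 there were 5 higher and 3 lower, against 2003 of all 17063 genes tested. Calls depended on which libraries were kept. Without library GFA_WT_518, Mki67 was called, without GF library GF_WT_532 Tpx2 was called, and DESeq2 called Mki67 and Tpx2. Plk1 had the smallest p among genes with a negative difference, at log2 -2.40 (SE 0.96, edgeR adjusted p = 0.315). Pbk was higher at log2 7.80 (SE 1.74, edgeR adjusted p = 0.0471). Its calls here, between GF and SPF and between genotypes under GF all use the same wild-type GF libraries. Counts of Pbk per library are not given.

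Between GFA and SPF in wild-type hippocampus 0 of 34 genes were called by edgeR, against 0.123% of all, and 0 were called by DESeq2. At unadjusted edgeR p under 0.05 there were 0 higher and 4 lower, against 1370 of all 17063 genes tested. Plk1 had the smallest p, at log2 -2.46 (SE 0.93, edgeR adjusted p = 0.492), with 0, 0.439, 0 and 1.33 CPM under GFA and 1.47, 1.61, 2.87 and 3.75 CPM under SPF. Mcm4 had the smallest p in the other direction (log2 0.54, SE 0.34, edgeR adjusted p = 0.747). Mcm6 differed by log2 -1.89 (SE 0.80, edgeR adjusted p = 0.55).

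Within 5xFAD hippocampus no member passed between housing groups. Of the 34 genes 0 were called between GF and SPF, against 1.82% of all, 0 between GFA and GF, against 0.082%, and 0 between GFA and SPF, against 0.0527%. At unadjusted p under 0.05 edgeR gave 3, 2 and 0 of the 34 in these comparisons, against 2025, 1286 and 1147 of all 17063 genes tested. DESeq2 called 1 gene, Rrm2, between GF and SPF. Rrm2 was 1.49, 13.1, 4.27 and 5.63 CPM under SPF and 0.488, 1.21 and 0.0888 CPM under GF, without overlap (log2 -3.39, SE 1.28, edgeR adjusted p = 0.239). Under GFA it was 7.04, 4.66, 3.71 and 0.104 CPM. Mcm4 had the smallest p in the other direction between GF and SPF (log2 0.78, SE 0.36, edgeR adjusted p = 0.393). In levels Rrm2 was the 1 of 34 lower in GF without overlap, against 5.24% of all genes. Mcm4 was the 1 higher, against 8.6%.

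None of the 5 genes tested throughout passed between GF and SPF in 5xFAD mice. Mki67 differed by log2 -0.63 (SE 0.92, edgeR adjusted p = 0.894), Top2a by -0.65 (SE 1.01, adjusted p = 0.905), Cdk1 by -0.04 (SE 0.67, adjusted p = 0.998), Mcm6 by -1.15 (SE 0.86, adjusted p = 0.698) and Pcna by -0.01 (SE 0.21, adjusted p = 0.999). Leaving out single libraries moved Mcm6 from -2.93 (without GF_FAD_526) to -0.58 (without GF_FAD_531), and Mki67 was -0.036 without SPF_FAD_2153. Between GFA and GF the smallest p in each direction belonged to Ccne1 (log2 4.86, SE 2.15, edgeR adjusted p = 0.595) and Ccnb1, a mitotic cyclin (-0.98, SE 1.25, adjusted p = 0.986). Ccne1 was listed at 0 in 2 of the 3 GF libraries. Between GFA and SPF they belonged to Mcm4 (log2 0.63, SE 0.34, edgeR adjusted p = 0.815) and Ccne2, a relative of Ccne1 (-0.90, SE 0.59, adjusted p = 0.906).

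The genotype difference was compared between housing conditions as an interaction. No gene of 17063 was called by edgeR in any of the 3 interactions, so 0 of 34 members stood against 0% of all genes. At unadjusted p under 0.05 edgeR gave 2, 2 and 1 members, against 942, 905 and 1124 of all genes tested, and DESeq2 called 0 in each. The smallest p for the GF difference minus the SPF difference belonged to Mki67, given above, and to Pcna in the other direction (log2 -0.41, SE 0.29, edgeR adjusted p = 0.963). For GFA minus GF they belonged to Mki67 (log2 -4.26, SE 1.54, edgeR adjusted p = 0.895) and Cdc6 (4.22, SE 2.73, adjusted p = 0.977). For GFA minus SPF they belonged to Plk1 (log2 2.86, SE 1.25, edgeR adjusted p = 0.706) and Tyms (-0.34, SE 0.31, adjusted p = 0.927).

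In cortex the member that passed was Mcm6, a subunit of the replicative helicase. Its levels were 17, 24.8, 22.3 and 22.8 CPM in SPF libraries 1 to 4. In GF libraries GF_WT_528, GF_WT_529, GF_WT_530 and GF_WT_532 they were 16.7, 2.72, 16.7 and 11.4 CPM, and in GFA libraries GFA_WT_518, GFA_WT_523, GFA_WT_524 and GFA_WT_525 they were 2.01, 4.61, 4.84 and 5.42 CPM. Every GFA library was below every SPF library. Every GF library was too, narrowly (highest 16.7 against lowest 17 CPM), and GF library GF_WT_529 lay among the GFA values. Between GFA and SPF, Mcm6 fell by 2.36 on the log2 scale (SE 0.41, edgeR adjusted p = 0.0113), the 1 gene called of 30 tested, against 0.364% of 15113 genes. In levels Cdk2 was the 1 member higher without overlap, against 2.42% of all genes, and Mcm6 the 1 member lower, against 1.94%. Without GFA library GFA_WT_523 its adjusted p was 0.0589, and without the expression filter 0.18, while DESeq2 gave 0.000577.

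**Figure D5:**
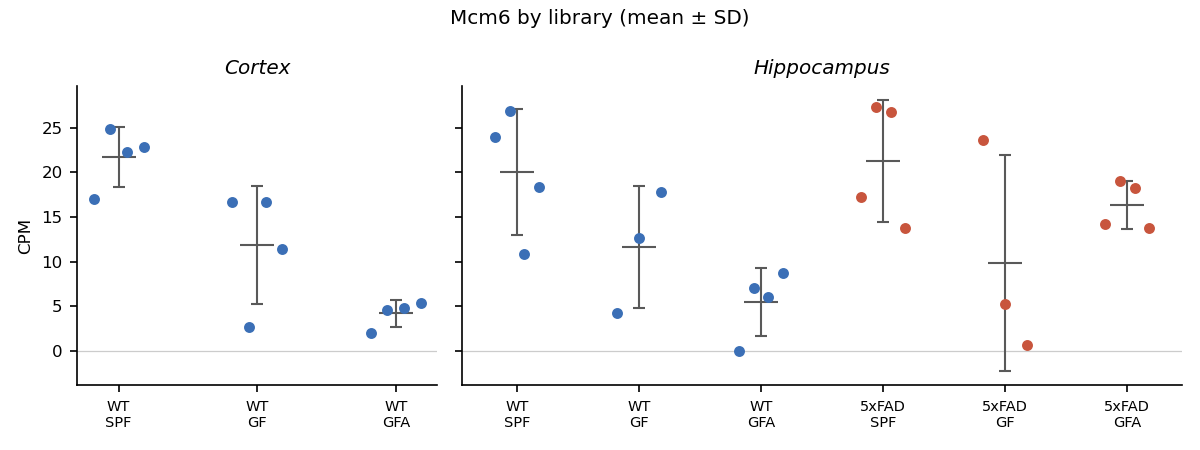
CPM of Mcm6 in each cortex and hippocampus library, wild type in blue and 5xFAD in red, with mean and SD per group. In cortex the 4 GFA libraries sit between 2.01 and 5.42 CPM, all below the 4 SPF libraries at 17 to 24.8 CPM.

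None of the other subunits of the helicase ring passed beside Mcm6. Between GFA and SPF in cortex, Mcm2, Mcm3, Mcm4, Mcm5 and Mcm7 differed by log2 0.29 (SE 0.27), 0.04 (SE 0.13), -0.19 (SE 0.20), 0.43 (SE 0.33) and -0.13 (SE 0.15), with none called. Their hippocampus libraries from the same animals held Mcm6 at 0, 7.08, 6.08 and 8.76 CPM under GFA and 24, 26.9, 10.9 and 18.4 CPM under SPF. Mcm6 was not called there. The 0 CPM came from library GFA_WT_518, which had 0 counts for 19 of the 34 genes. In 5xFAD GFA hippocampus Mcm6 was 14.2, 19, 18.2 and 13.8 CPM. Whole-brain Mcm6 was 24.1, 31.8 and 21.1 CPM under SPF and 26.2, 26.6, 34.3, 24.7 and 16.6 CPM under GF, which overlapped. Among tested neighbours of Mcm6 on its chromosome in this cortex comparison, Dars, next to it on one flank, differed by log2 -0.16 (edgeR adjusted p = 0.877) and Ubxn4, on the other flank, by -0.21 (adjusted p = 0.722). Within 8 genes the tested neighbours ran from log2 -0.22 (Pfkfb2) to 1.39 (Map3k19, edgeR adjusted p = 0.449). Rab3gap1 had the smallest adjusted p of them, 0.172 by edgeR, at log2 0.46. Mrc1, the 1 called of 3 border macrophage markers tested, was also lower, at log2 -1.57 (SE 0.22, edgeR adjusted p = 0.0022). It was lower between GF and SPF in cortex too (log2 -1.61, SE 0.22, edgeR adjusted p = 0.00109), where Mcm6 was not called. The summed level of 6 border macrophage markers was 648.5 to 824.8 CPM under GFA and 737.8 to 994.4 CPM under SPF. The part of Mrc1 and these markers in the Mcm6 result was not tested.

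The other cortex comparisons called no member. Between GF and SPF 0 of 30 genes were called by edgeR, against 1.71% of all, and 0 by DESeq2. At unadjusted edgeR p under 0.05 there were 3, against 2079 of all 15113 genes tested. In levels Mcm6 was lower and Pcna higher in GF without overlap, 1 of 30 each, against 2.22% and 5.52% of all genes. Mcm6 had the smallest p (log2 -0.94, SE 0.39, edgeR adjusted p = 0.266), and Mcm7 the smallest in the other direction (0.32, SE 0.15, adjusted p = 0.35). Mki67 differed by log2 0.19 (SE 0.99, edgeR adjusted p = 0.966), Top2a by -1.82 (SE 1.24, adjusted p = 0.609), Cdk1 by -0.18 (SE 0.49, adjusted p = 0.929) and Pcna by 0.14 (SE 0.13, adjusted p = 0.739). Between GFA and GF 0 of 30 were called by edgeR, against 0.973% of all, and 0 by DESeq2. At unadjusted edgeR p under 0.05 there were 4, against 1706 of all 15113 genes tested. In levels Tyms, Mcm7 and Tk1 were lower in GFA without overlap, 3 of 30 against 6.29% of all genes. In the higher direction there were 0, against 2.65%. Mcm6 again had the smallest p (log2 -1.42, SE 0.40, edgeR adjusted p = 0.112) and was called without GF library GF_WT_529. Aurka, the spindle-pole kinase, had the smallest p upward (log2 1.75, SE 0.81, edgeR adjusted p = 0.426). Without GF_WT_529 the Aurka difference was 3.53, and over the libraries left out in turn its edgeR adjusted p ran from 0.0841 to 0.689. Cdc25b, a phosphatase that activates Cdk1 and is outside the 34 genes, fell by 1.41 on the log2 scale (SE 0.31, edgeR adjusted p = 0.0362).

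Hippocampus and cortex of the same 11 wild-type animals were compared with the animal as a block. Of 34 genes 0 were called under SPF, against 0.718% of all, 0 under GF, against 0.0359%, and 0 under GFA, against 2.38%. At unadjusted p under 0.05 edgeR gave 5, 4 and 4 of the 34, against 2322, 1983 and 2993 of all 16706 genes tested. DESeq2 called 1, 1 and 2. Mcm3 had the smallest p among lower genes in each condition, at log2 -0.55 (SE 0.16, edgeR adjusted p = 0.117) under SPF, -0.57 (SE 0.18, adjusted p = 0.2) under GF and -0.50 (SE 0.16, adjusted p = 0.108) under GFA. Its levels were 60.7, 69.0, 50.8 and 55.9 CPM in cortex and 37.7, 47.3, 36.0 and 42.8 CPM in hippocampus of SPF animals 1 to 4, lower in hippocampus in each animal. Among higher genes the smallest p belonged to Rrm2 under SPF (log2 3.69, SE 1.08, edgeR adjusted p = 0.129), Pcna under GF (0.45, SE 0.20, adjusted p = 0.394) and Tyms under GFA (0.70, SE 0.25, adjusted p = 0.14). Dnmt1, the maintenance DNA methyltransferase of the further S phase list, was lower in hippocampus by log2 -0.79 (SE 0.16, edgeR adjusted p = 0.0423) under SPF and -0.63 (SE 0.16, adjusted p = 0.0488) under GFA.

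In whole brain, from younger mice, Mki67 was near 0. It was 0.607, 0 and 0 CPM in SPF and 0.0426, 0.0430, 0, 0 and 0 CPM in GF libraries, and the 13 reads under SPF all came from library 1. Of the 23 genes tested 0 were called between GF and SPF by edgeR, against 1.99% of all, and 0 by DESeq2. At unadjusted edgeR p under 0.05 there were 1 higher and 1 lower, against 1734 of all 11332 genes tested. Rrm1, the large subunit of ribonucleotide reductase, had the smallest p upward, with 24, 34.7 and 38.1 CPM in SPF and 49.8, 42.7, 38.2, 63.2 and 39.9 CPM in GF libraries (log2 0.55, SE 0.19, edgeR adjusted p = 0.158). Mcm3 had the smallest p downward (log2 -0.22, SE 0.09, edgeR adjusted p = 0.232), at 76.1 to 80.6 CPM in SPF and 63.1 to 73.4 CPM in GF libraries. In levels, 3 of 23 members (Cdk1, Aurkb and Rrm1) were higher in GF without overlap, against 5.17% of all genes, and 1 (Mcm3) was lower, against 6.17%. Cdk1 differed by log2 0.36 (SE 0.22, edgeR adjusted p = 0.481), Mcm6 by 0.02 (SE 0.21, adjusted p = 0.975) and Pcna by 0.06 (SE 0.16, adjusted p = 0.905). Pola1, the catalytic subunit of the priming DNA polymerase and outside the 34 genes, fell by 1.43 on the log2 scale (SE 0.31, edgeR adjusted p = 0.0323).

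Some counts can be shared between genes. In the mouse annotation 10 of the 34 genes have exons that overlap another gene, mostly on the opposite strand, among them Nusap1 with Oip5, Ccna2 with Exosc9, Cdk2 with Pmel, Mcm7 with Ap4m1 and Cops6, and Tk1 with Afmid. Whether counting used strand is not given in the sources used here. Named pseudogenes of members held at most 102 counts in a library, for Ccnb2-ps, and at most 10 for Pcna-ps2. Mki67 and Mcm6 had no such overlap.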

How the data were processed

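The deposited values are raw read counts per gene, as the authors left them. The submitters' processing notes name STAR 2.5.2b for alignment, featureCounts 1.5.1 for assignment and the build GRCh38, which is human although the symbols are mouse ones; strand and annotation release are not given in the sources used here. All columns were matched to samples (0 left over). CPM is count over library total. Exon lengths came from GENCODE M21 on GRCm38, by symbol.

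Each tissue, and the comparison of regions, had its own fit in edgeR 4.0.16 (R 4.3.3): filterByExpr (minimum count 10), TMM, robust quasi-likelihood, two-sided tests, Benjamini-Hochberg over all genes tested, threshold 0.05. The fits were tested on simulated data. SE is the log2 difference over the square root of F. Cortex and hippocampus of an animal share its number in the labels, and their residuals correlated at r 0.027 to 0.115 across genes (over 0.1 in 4 of 11), so the animal was the block.

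Tests were given for called members, otherwise for the smallest p in each direction, and always for Mki67, Top2a, Cdk1, Mcm6 and Pcna between GF and SPF and between genotypes. Some tests outside this rule are also given, among them Rrm2 between GF and SPF in wild-type hippocampus and Mcm4 between genotypes under GF. Mcm6 between GFA and SPF in wild-type hippocampus is another. Of the further lists up to 4 genes per direction were named. Members, lists and tests were chosen with earlier results of these data known. Alternatives were DESeq2 1.42.0, RLE size factors, other filters, only the groups compared, leaving libraries out and the block. Libraries within groups differed beyond counting noise (chi-square per degree of freedom 9.71 to 56.1 over 61 pairs). Each p-value reflects only how far these samples spread, which may be partly technical.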

Additional observations from a re-analysis of the deposited data

Results flagged for a closer look

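Of 48 sets of libraries checked (the summed level of the 34 genes and the 5 genes described throughout, in each group of 4 or 5), 1 held a library far from the others. Top2a was 9.72 CPM in the cortex GFA library GFA_WT_525, where the other libraries of its group ran from 0.175 to 1.67 CPM, a gap of 0.843 of the group's range. Chance alone gives such a gap in about 1 in 20 groups. The same library held the highest cortex CPM of 11 of the 34 genes, a count that was not made over all genes.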

How the results depend on the processing

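Counts of called members moved with the tool and filter. The shares of all genes called under these alternatives are not given, so the counts have no background beside them. DESeq2 called 2 members in wild-type hippocampus between GF and SPF, 2 between GFA and GF, 1 in 5xFAD between GF and SPF, 3 between genotypes under GF, 3 under GFA, 8 in the mean over conditions, and 1, 1 and 2 between regions under SPF, GF and GFA. Without the expression filter the counts were 0 in cortex between GFA and SPF, 0 between genotypes under GF, and 2, 1 and 1 between regions. Without the 2 libraries with the fewest genes (GF_WT_530 and GFA_WT_518, chosen after seeing the data) they were 1 (GF against SPF) and 2 (GFA against GF) in wild-type hippocampus, 2 and 1 between genotypes under GF and GFA, and 7 in the mean. Leaving out each library in turn gave 0 to 1 members in cortex for GFA against GF and against SPF, in wild-type hippocampus for GFA against GF, and between genotypes under GF and GFA, and 2 to 6 in the mean.

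Small differences changed sign. Without the shallow libraries Cdk1 between GF and SPF in 5xFAD was log2 0.25 and Mcm6 between genotypes under SPF -0.11. Without the libraries with blood RNA, Cdk1 in the former was 0.11, Pcna 0.065 and Pcna in the mean over conditions -0.021, with only the groups compared Pcna in the former was 0.001, and without GF_WT_530 and GFA_WT_518 Pcna between genotypes under GF was 0.10. Leaving out single libraries gave log2 ranges for Mcm6 of -0.11 to 0.20 in whole brain, for Mki67 and Cdk1 of -0.45 to 1.39 and -0.52 to 0.13 in cortex between GF and SPF, and for Cdk1 and Pcna of -0.29 to 0.25 and -0.077 to 0.056 in 5xFAD between GF and SPF. Between genotypes they were -0.034 to 0.503 for Cdk1 and -0.14 to 0.24 for Mcm6 under SPF, -1.98 to 0.37 for Mcm6 and -0.49 to 0.10 for Pcna under GF, -0.267 to 0.033 for Tyms under GFA, and -0.10 to 0.68 for Mcm6 and -0.06 to 0.14 for Pcna in the mean. For Cdc6 in the GFA minus GF interaction the range was -1.20 to 9.09. Without a change of sign, 1 library moved further values by over 1.5 times. Without cortex GF_WT_529, Mcm7 and Mcm6 between GF and SPF were 0.20 and -0.61, and Top2a there was -0.96 without SPF library 1 and -2.82 without GF_WT_528. In wild-type hippocampus Mcm6 between GF and SPF was -0.48 without GF_WT_529 and -1.34 without GF_WT_532. Without GFA_WT_525 Plk1 was -3.96 for GFA against GF, -4.02 for GFA against SPF and 4.41 in the GFA minus SPF interaction, where Tyms was -0.15. Mcm4 for GFA against SPF was 0.31 without SPF library 3 and 0.84 without GFA_WT_518. In 5xFAD, Mki67 between GF and SPF was -0.98 without GF_FAD_527, Top2a there -0.31 without SPF_FAD_2142 and -1.03 without SPF_FAD_2152, Ccne2 for GFA against SPF -0.042 without SPF_FAD_2142, and Ccnb1 for GFA against GF -0.59 without GFA_FAD_522. Pcna in the GF minus SPF interaction was -0.032 without GF_WT_530 and -0.62 without GF_WT_529. The cause was not tested.

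Whole-brain libraries share only a replicate number (residual r -0.036 to -0.003), and the replicate block called 0 members. Without the animal block 0 were called between regions. Of all alternatives for single genes, 1062 kept direction and side of the threshold, 24 newly passed it, 9 no longer passed it and 41 changed sign. Depth limits the low genes: 3 counts correspond to 0.522 CPM in the shallowest library.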

Other observations

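Genes called between GFA and SPF in cortex were counted on the chromosome that carries Mcm6. Of 54 called genes with a chromosome in the RefSeq table, 14 (25.9%) lay on it, where 5.83% of the genes tested do. They were Arl4c, Capn2, D2hgdh, Dbi, Glrp1, Ifi208, Il1rl1, Mcm6, Mlph, Serpine2, Ugt1a8, Ugt1a9, Usp40 and Wdfy1. The share was 6.72% for genes called between GF and SPF and 7.14% between GFA and GF in cortex, and 5.96% between GF and SPF in whole brain. The share was looked at after Mcm6 was seen to pass, and its cause was not tested.

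Tk1, the thymidine salvage kinase, was 0.0394 to 1.35 CPM in the 8 whole-brain libraries and 7.39 to 22.7 CPM in all cortex and hippocampus libraries. The 2 tables differ in gene set, in mouse age and in brain region, which cannot be told apart here. Mcm7 ranged from 9.11 to 16.2 CPM in whole brain and from 18.3 to 46.3 CPM in the other libraries. Both genes have exons that overlap a gene on the opposite strand (Tk1 with Afmid, Mcm7 with Ap4m1 and Cops6). The part of this overlap was not tested.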
